A study of Mus musculus with 10 samples.

Results

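ISG15 is a small ubiquitin-like protein that cells attach to other proteins, and the genes described here are those that make it, attach it and remove it: Isg15 itself, Uba7, Ube2l6, Herc6 and Usp18. They were taken from the table of transcript levels by gene name, 5 of its 55487 genes, and all 5 were found. They were chosen because of how they differed between the genotypes of this experiment, so their levels in the groups are given as a description, without a test. The levels are TPM, an estimate of transcript abundance that is corrected for transcript length and scaled to a common total. In the table used, the libraries summed to 971419 to 993229 TPM.

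The libraries were made from intestinal epithelial cells (IECs) stripped from the colon of C57BL/6J mice, for which the labels name no treatment. One group was wild type (WT, n = 5) and the other was labelled as lacking RhoB, a small GTPase, by a deletion not restricted to the epithelium (RhoB-/-, n = 5). The labels give neither age nor sex and do not speak of pooled animals. The WT mice of the study were purchased and the RhoB-/- mice were made at another center, so genotype and origin of the mice cannot be told apart. Replicates are separate samples in the labels, which do not say that each was a separate mouse.

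Conjugation of ISG15 follows the ubiquitin cascade. Uba7 is the activating enzyme (E1), Ube2l6 the conjugating enzyme (E2), and Herc6 the main ligase (E3) in mice, where it takes the part that HERC5 plays in human cells. Usp18 is the protease that takes ISG15 off its targets, and apart from that activity it binds the type I interferon receptor together with STAT2 and dampens signaling. Genes of this system are known as targets of type I and type III interferons, which act on interferon-response elements in promoters. In the gut epithelium, type III interferon is the form to which the absorptive cells are known to respond best. Free ISG15 can also be secreted and is known to act on the integrin LFA-1 of lymphocytes.

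The targeted gene, Rhob, was 312.1 ± 85.5 TPM (SD, n = 5) in WT libraries and 0.09, 0.10, 0.35, 0.57 and 110.9 TPM in RhoB-/- replicates 1 to 5. The library labelled RhoB-/- replicate 5 therefore stood apart from its group, although it lay below every WT library, of which the lowest was 170.5 TPM. It was kept as labelled. The means and ratios of the 5 genes and the number of calls in each list are also given without it, and other values include it unless stated. All 12 epithelial markers (among them Epcam, Krt8 and Cdx2) were present in every library. They summed to 21170 to 27604 TPM in WT and 22886 to 40380 TPM in RhoB-/-, with overlap. The mean was higher in RhoB-/- for 11 of the 12, and 2, Krt20 and Vil1, passed the test described below. Of all tested genes, 12.7% passed that test, 5.58% being higher in RhoB-/-. Krt20 averaged 720.2 TPM in WT and 1652 TPM in RhoB-/-. The 18 leukocyte markers summed to 8.93 to 19.2 TPM in WT and 28.0 to 48.5 TPM in RhoB-/-, without overlap. The mean of each of the 18 was higher in RhoB-/-, and S100a8 was listed at 0 in all WT libraries. Of the 7 that averaged 1 TPM or more over all libraries and could be tested, 5 passed the test described below. Cd8a, which passed, and Lyz2, which did not, averaged 0.832 and 0.868 TPM in WT and could be tested only through their RhoB-/- levels. The 9 stromal markers summed to 4.25 to 5.33 TPM in WT and 6.51 to 36.5 TPM in RhoB-/-. The mean of 7 of the 9 was higher in RhoB-/-, and of the 2 that could be tested only Dcn passed. These sums moved with the genotype, and their part in the results below was not tested. In bulk RNA, more cells of a type and more RNA per cell cannot be told apart.

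The promoter sequences come first because the known regulation of these genes runs through a short DNA motif. Windows from 250 bases before to 50 bases after the RefSeq transcript start (GRCm38.p6) were searched on both strands, with overlapping matches counted, for the core of the interferon-response element, which is a pair of GAAA blocks with 2 bases of any kind between them. Of 32851 windows, 1131 (3.44%) held it. A window was found for 4 of the 5 genes, and Usp18 is named only. Isg15, on the minus strand at chr4:156199424-156200818, held 3 overlapping copies that began 78, 72 and 66 bases before the start. Uba7, on the plus strand at chr9:107975505-107984060, held no exact match. Its window had a stretch, 29 to 18 bases before the start on the opposite strand, that differed by 1 base from a longer form, the core followed by CT. Search for that form with 1 mismatch was added after the sequences had been seen, and 3.71% of all windows held it. Ube2l6 (plus strand, chr2:84798828-84810335) and Herc6 (plus strand, chr6:57581000-57664632) held neither, which says only that these letters are not in these windows. None of the 4 genes with a window held TTCNNNGAA, the core of the interferon gamma-activated element, or TATAAA. These were in 8.30% and 13.6% of all windows. The sequences below are RefSeq sequence on GRCm38.p6, read 5′ to 3′ on the gene's strand, with the motif in capitals. Those of Isg15 (chr4:156200819-156200938), Ube2l6 (chr2:84798708-84798827) and Herc6 (chr6:57580872-57580991) are the 120 bases before the start. That of Uba7 (chr9:107975533-107975562) is the 30 bases around its near match, which lie in an annotated exon of the gene.
Isg15: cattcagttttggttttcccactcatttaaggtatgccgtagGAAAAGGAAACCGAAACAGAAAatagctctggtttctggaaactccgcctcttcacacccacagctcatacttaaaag
Uba7: agtctAGTTTCACTTTTggtttcctgaaat
Ube2l6: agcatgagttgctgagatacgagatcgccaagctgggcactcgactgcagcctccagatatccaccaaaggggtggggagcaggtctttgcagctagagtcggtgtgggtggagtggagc
Herc6: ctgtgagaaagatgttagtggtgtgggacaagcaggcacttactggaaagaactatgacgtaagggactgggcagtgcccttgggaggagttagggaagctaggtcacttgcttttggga

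**Figure D1:**
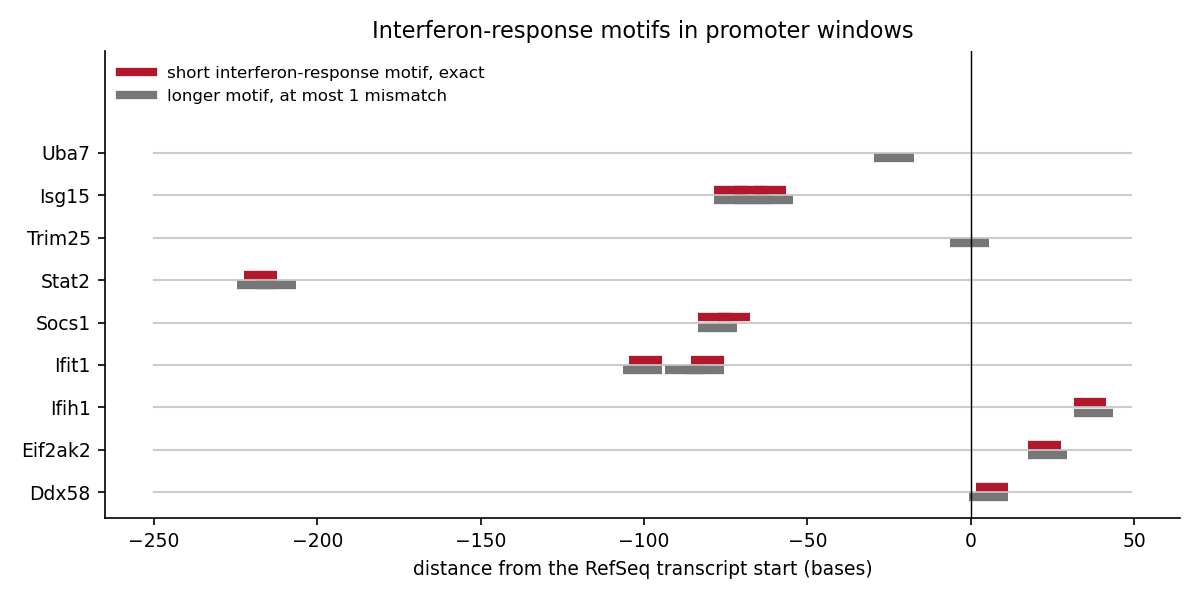
Matches to the interferon-response motif in promoter windows, with the distance from the RefSeq transcript start in bases on the x axis, a line per gene, red bars for exact matches of the short motif and gray bars for the longer motif with at most 1 mismatch. Isg15 and Uba7 are shown with the 7 related genes higher in RhoB-/- that held a match, and the matches of Isg15 lie 78 to 55 bases before the start.

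All 5 genes were higher in every RhoB-/- library than in any WT library. Of the 12870 genes whose TPM averaged 1 or more, 14.5% did not overlap between the genotypes, 5.97% being higher and 8.55% lower in RhoB-/-, and nothing is read from these shares since the 5 genes were chosen on the same contrast. Isg15 (ENSMUSG00000035692), the modifier, was at 10.7, 10.03, 11.9, 5.46 and 6.34 TPM in WT replicates 1 to 5 and at 268.7, 304.8, 390.8, 557.7 and 646.9 TPM in RhoB-/- replicates 1 to 5. The lowest RhoB-/- library lay 22.6-fold above the highest WT library. The means were 8.89 ± 2.83 and 433.8 ± 163.2 TPM (SD, n = 5), a ratio of 48.8 and a difference of 5.43 on the log2(TPM + 1) scale. Among all tested genes Isg15 moved from rank 7588 by mean level in WT to rank 272 in RhoB-/-.

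Usp18 (ENSMUSG00000030107, plus strand, chr6:121245906-121270917), the protease, was at 2.03, 1.11, 1.80, 0.95 and 0.91 TPM in WT and at 32.4, 34.2, 42.6, 49.01 and 64.6 TPM in RhoB-/- replicates 1 to 5. It was near the lower limit of the tested range in WT, and the groups were 15.9-fold apart at their nearest libraries. The means were 1.36 ± 0.519 and 44.6 ± 13.05 TPM (SD, n = 5), a ratio of 32.8 and a log2(TPM + 1) difference of 4.25. Isg15 and Usp18, the modifier and the enzyme that removes it, had the largest ratios of the 5.

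The ligase Herc6 (ENSMUSG00000029798) was at 1.74, 1.39, 0.97, 1.14 and 0.88 TPM in WT and at 9.92, 11.3, 12.3, 14.4 and 18.9 TPM in RhoB-/-. The groups lay 5.70-fold apart at their nearest libraries. The means were 1.22 ± 0.348 and 13.4 ± 3.50 TPM (SD, n = 5), a ratio of 10.9 and a log2(TPM + 1) difference of 2.67. Herc6 was the lowest of the 5 genes in both genotypes by mean level.

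Ube2l6 (ENSMUSG00000027078), the conjugating enzyme, was at 4.26, 4.66, 7.16, 4.32 and 5.73 TPM in WT and at 22.5, 25.9, 35.0, 34.9 and 33.2 TPM in RhoB-/-. Again no library of one group reached the other, with a gap of 3.14-fold. The means were 5.23 ± 1.23 and 30.3 ± 5.75 TPM (SD, n = 5), a ratio of 5.80 and a log2(TPM + 1) difference of 2.33.

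Uba7 (ENSMUSG00000032596), the activating enzyme, was at 10.1, 17.0, 13.02, 13.3 and 12.4 TPM in WT and at 44.9, 42.7, 53.5, 49.9 and 61.0 TPM in RhoB-/-. It had the highest WT mean of the 5 genes and the smallest ratio, with groups 2.52-fold apart at their nearest libraries. The means were 13.2 ± 2.47 and 50.4 ± 7.27 TPM (SD, n = 5), a ratio of 3.83 and a log2(TPM + 1) difference of 1.87.

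**Figure D2:**
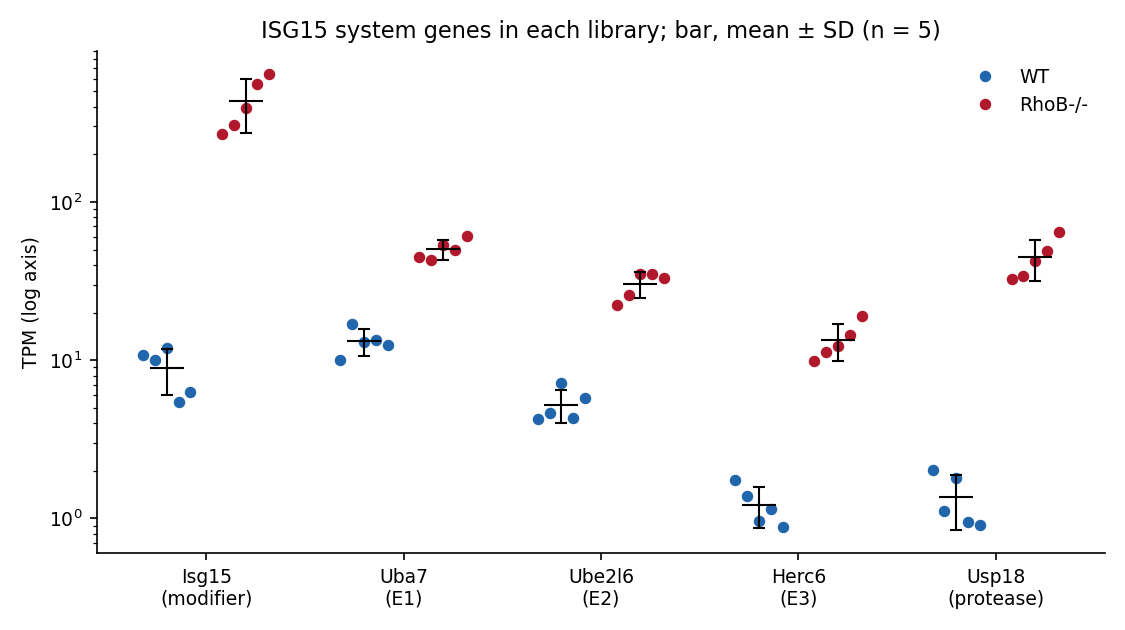
TPM of the 5 ISG15 system genes in each library on a log axis, with blue points for the 5 WT and red points for the 5 RhoB-/- libraries and black bars for the mean ± SD. Every red point of a gene lies above every blue point, and the distance is largest for Isg15, at 8.89 against 433.8 TPM on average, and smallest for Uba7, at 13.2 against 50.4 TPM.

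The library labelled RhoB-/- replicate 5, which kept Rhob transcript, did not have lower levels of these genes. It held the highest level of Isg15, Uba7, Herc6 and Usp18 in its group. Without it the RhoB-/- means were 380.5 ± 128.7 TPM for Isg15, 39.5 ± 7.72 TPM for Usp18, 11.97 ± 1.86 TPM for Herc6, 29.6 ± 6.37 TPM for Ube2l6 and 47.8 ± 4.87 TPM for Uba7 (SD, n = 4). The ratio of mean TPM to WT was then 42.8 for Isg15, 29.1 for Usp18, 9.78 for Herc6, 5.66 for Ube2l6 and 3.63 for Uba7. The order of the 5 ratios stayed as it was.

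Because the genes differed by unequal factors, the make-up of the system differed too. In WT libraries Uba7 came first and Isg15 second, although their ranges overlapped and Uba7 was the higher in 4 of 5 libraries. Ube2l6 took the third place, with a range that overlapped that of Isg15, and Usp18 and Herc6 came last with overlapping ranges and without overlap with Ube2l6. In RhoB-/- libraries Isg15 was first without overlap. Uba7, Usp18 and Ube2l6 followed, each neighbor overlapping the next, and Herc6 was last without overlap. Usp18 and Ube2l6 changed places, Usp18 being below Ube2l6 in every WT library and above it in every RhoB-/- library.

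Summed over the 5 genes, the level was 25.2 to 34.8 TPM in WT and 378.3 to 824.6 TPM in RhoB-/-. Isg15 made up 29.3% of the sum in WT on average (range 21.7% to 37.2%) and 74.9% in RhoB-/- (71.0% to 79.0%). Modifier transcript thus outnumbered that of its E1 only in RhoB-/-, with an exception in WT replicate 1: Isg15 over Uba7 was 0.698 in WT (0.409 to 1.06) and 8.44 in RhoB-/- (5.98 to 11.2). The protease changed relative to the enzymes that attach ISG15 as well. Usp18 over Uba7 was 0.110 in WT (0.0655 to 0.201) and 0.872 in RhoB-/- (0.720 to 1.06), and Usp18 over Herc6 was 1.14 (0.799 to 1.86) and 3.32 (3.02 to 3.47). Both ratios were without overlap between the genotypes. Other proportions were closer. Isg15 over Usp18 was 6.73 in WT (5.29 to 9.04) and 9.56 in RhoB-/- (8.31 to 11.4), and Ube2l6 over Uba7 was 0.406 (0.275 to 0.550) and 0.601 (0.500 to 0.699), both with overlap.

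Other ubiquitin-like systems give a scale for these levels. The genes of the lists used here were sorted by role after their values had been seen, so the ranks are a description. Among 21 modifier genes Isg15 was 20th by mean TPM in WT, where only Ubd was lower. In RhoB-/- it was 4th, below the polyubiquitin gene Ubb at 961.5 TPM without overlap and above Ubl5 at 316.1 TPM with overlap. Isg15 was at 0.0700 of the level of Nedd8 in WT and at 3.28 times that level in RhoB-/- (2.34 to 4.80). Against Ubb the ratio was 0.00936 and 0.447.

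The enzymes also moved up among their own kind. Uba7 was 7th of 10 E1 genes in WT and 2nd in RhoB-/-, below Uba1, the main ubiquitin E1, at 117.7 TPM without overlap and above Sae1 at 42.0 TPM with overlap. Ube2l6 went from 11th to 7th of 12 E2 genes, and its ratio to its close relative Ube2l3 from 0.0652 (0.0532 to 0.0870) to 0.308 (0.249 to 0.372). Herc6 went from the last place to the 5th of 12 E3 genes. Usp18 went from 20th to the third of 21 protease genes, and in single RhoB-/- libraries it ranked from 1 to 3. The neighbors of Ube2l6, Herc6 and Usp18 in RhoB-/- all overlapped with them, so these ranks are accurate only to the range over libraries, which was 7 to 9 for Ube2l6, 5 to 6 for Herc6 and 1 to 3 for Usp18.

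**Figure D3:**
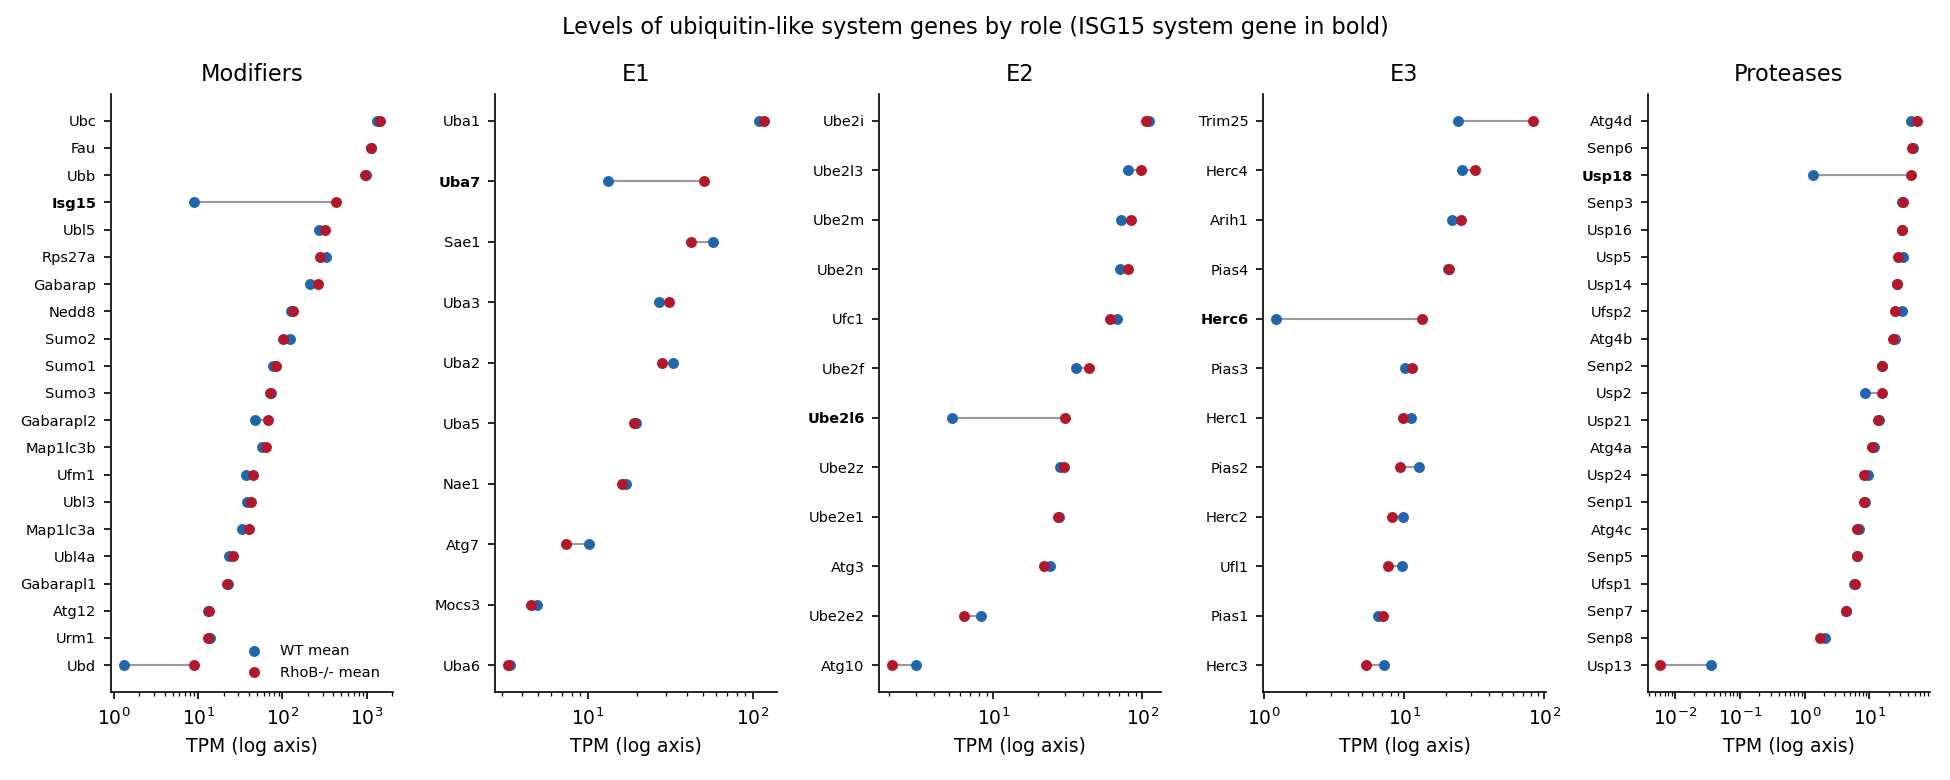
Mean TPM on a log axis of the ISG15 system genes (bold) and other ubiquitin-like system genes, sorted by role and by RhoB-/- mean, with blue points for WT and red points for RhoB-/- (n = 5 each) joined by a line. Long lines belong to Isg15, Uba7, Ube2l6, Herc6 and Usp18 and to Ubd and Trim25, and Usp13, the last protease, averaged 0.036 TPM in WT and 0.006 TPM in RhoB-/-, where the line is drawn between values close to 0.

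Within the RhoB-/- group the members varied together in part. Isg15, Herc6 and Usp18 had the same order of libraries, from replicate 5 as the highest through 4, 3 and 2 to replicate 1 as the lowest, where the numbers are names and not a sequence. Uba7 was also highest in replicate 5 but lowest in replicate 2, and Ube2l6 was highest in replicate 3 and lowest in replicate 1. The highest RhoB-/- library was 2.41 times the lowest for Isg15, 1.997 times for Usp18, 1.91 times for Herc6, 1.56 times for Ube2l6 and 1.43 times for Uba7. In WT libraries no such common order was seen. Uba7 was lowest in WT replicate 1, where Herc6 and Usp18 were highest, and Isg15 was highest in WT replicate 3.

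The leukocyte marker sum had another order in RhoB-/- libraries, at 47.4, 28.0, 33.1, 30.6 and 48.5 TPM in replicates 1 to 5. Replicate 1, with the lowest Isg15, had the second-highest leukocyte sum, and replicate 4, with the second-highest Isg15, had the second-lowest. Replicate 5 was highest in both. The stromal sum was 6.51, 7.67, 7.28, 16.3 and 36.5 TPM in the same libraries and was highest in replicates 4 and 5, as was Isg15. Most of the sum in replicates 4 and 5 was the single gene Dcn, at 11.1 and 24.5 TPM.

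**Figure D4:**
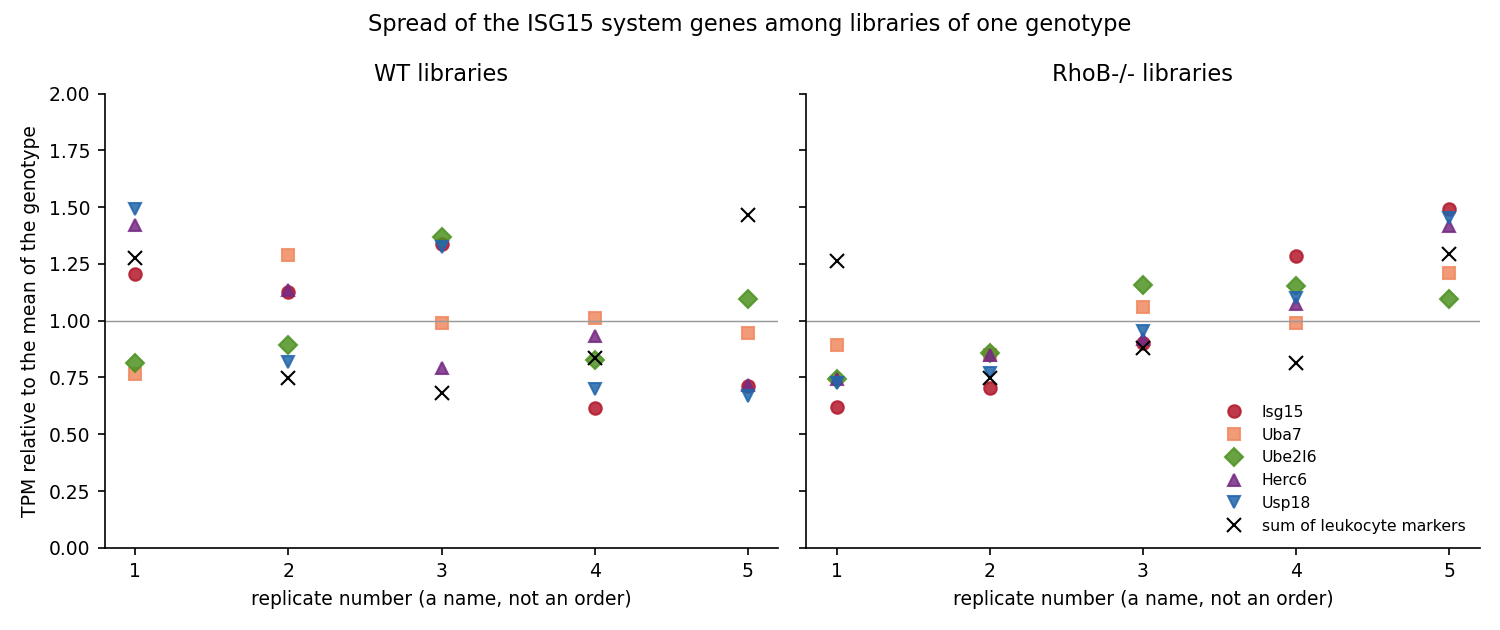
TPM of each ISG15 system gene in each library divided by the mean of its genotype, with the replicate number on the x axis, WT on the left and RhoB-/- on the right, and crosses for the summed leukocyte markers treated in the same way. In RhoB-/- replicate 1 all 5 genes lie below 1 while the leukocyte sum lies above it, and in replicate 5 all lie above 1.

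The genes that followed the members most closely from library to library were sought after removal of the genotype means, so that the difference between genotypes took no part. For each of 9276 other genes with a mean of at least 5 TPM, the deviation of log2(TPM + 1) was compared with the mean standardized deviation of the 5 members over the 10 libraries. The 10 nearest had a Pearson correlation of 0.885 to 0.948, which is a description of 10 libraries, is the extreme of many genes, and shares whatever moved a whole library. Ogfr, the opioid growth factor receptor, came first at 0.948 (Spearman 0.976), then Ifi35, an interferon-induced gene, at 0.936. Oas1a, of the 2-5A synthetase family, was at 0.917, and Phf11d was at 0.900. Sco1, Agpat2, Slc27a4, Mfap1b and Naa20 were between 0.885 and 0.906. With RhoB-/- replicates 1 and 5 left out, the values were 0.927 for Ogfr, 0.850 for Ifi35, 0.795 for Oas1a and 0.728 for Slc27a4, the lowest of the 10.

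These 10 genes were not alike in the comparison of genotypes, which had no part in choosing them. Each of the 12870 genes was tested by limma on the log2(TPM + 1) scale. With a Benjamini-Hochberg adjusted p below 0.05 and a fold change above 1.5, 12.7% of the tested genes were called, 5.58% higher and 7.13% lower in RhoB-/-. Of the 10, 6 were called higher, among them Phf11d by 2.89 on the log2 scale, Oas1a by 2.22, Ifi35 by 1.54, Ogfr by 1.38 and Agpat2 by 0.72. The other 4 were not called, and their log2 differences were 0.42 for Naa20, 0.29 for Slc27a4, 0.27 for Sco1 and 0.03 for Mfap1b. The median log2 difference of all tested genes was -0.13.

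Of 21 genes reported to act on ISG15, bind it or work with Usp18, 18 were tested, 3 rose and none fell, and the median log2 difference was -0.03. The 3 are 16.7% of the tested partners, where 12.7% of all tested genes were called and 5.58% were called higher. Trim25, a ligase that can also use ISG15, rose from 24.1 ± 1.94 to 82.5 ± 18.6 TPM (SD, n = 5, log2 difference 1.71, SE 0.14, limma adjusted p = 6.68e-06). Stat2, which recruits Usp18 to the interferon receptor, rose from 12.9 ± 2.82 to 55.4 ± 10.6 TPM (log2 difference 2.03, SE 0.16, limma adjusted p = 6.53e-06). Usp2, one of the ubiquitin proteases reported to act on ISG15, rose from 8.54 ± 1.68 to 15.7 ± 3.50 TPM (log2 difference 0.80, SE 0.16, limma adjusted p = 0.00613). None of the 3 overlapped between the genotypes.

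The other 15 partners had log2 differences of -0.38 to 0.31. They include the relatives of the members. Ube2l3, the nearest relative of Ube2l6, averaged 79.9 ± 5.49 TPM in WT and 98.5 ± 14.8 TPM in RhoB-/- (log2 difference 0.29, limma adjusted p = 0.0948). Herc3 was at 7.15 ± 1.87 and 5.32 ± 1.75 TPM (log2 difference -0.37, limma adjusted p = 0.226), and Herc4 at 25.7 ± 3.95 and 32.0 ± 4.44 TPM (log2 difference 0.31, limma adjusted p = 0.112). Ifnar2, the receptor chain that Usp18 binds, was at 3.66 ± 0.889 and 3.61 ± 0.756 TPM (log2 difference -0.01, limma adjusted p = 0.962).

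The chains of LFA-1, the receptor of secreted ISG15, were below the filter. Itgb2 was at 0.24 to 0.48 TPM in WT and 1.03 to 2.22 TPM in RhoB-/- without overlap (two-sided exact permutation test, p = 0.00794, the smallest that 5 against 5 libraries can give). Itgal was at 0.364 ± 0.340 and 0.790 ± 0.433 TPM with overlap (two-sided exact permutation test, p = 0.127). Both belong to leukocytes, whose marker sum was higher in RhoB-/- as given above, and its part in these values was not tested.

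Of 25 genes whose proteins are reported targets of ISG15, 24 were tested and Serpina1a was listed at 0. Among the 24, 7 rose and none fell, or 29.2% against 5.58% of all tested genes called higher, and the median log2 difference was 0.15. The 7 are themselves interferon-induced genes. Ifit1, which binds foreign RNA, rose from 2.83 ± 1.30 to 87.6 ± 30.0 TPM (log2 difference 4.54, SE 0.27, limma adjusted p = 5.84e-07). The RNA sensors Ddx58 (RIG-I) and Ifih1 (MDA5) rose from 4.91 ± 0.620 to 21.1 ± 4.25 TPM (log2 difference 1.89, limma adjusted p = 2.67e-06) and from 14.0 ± 2.30 to 44.5 ± 9.67 TPM (1.59, limma adjusted p = 3.13e-05).

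Trim25, given above, is also among the targets that rose, as are Eif2ak2 and Mx1. Eif2ak2, the kinase PKR that halts translation, rose from 12.7 ± 3.09 to 28.3 ± 6.47 TPM (1.09, limma adjusted p = 0.00171), and Mx1, an antiviral GTPase, from 7.05 ± 0.369 to 16.4 ± 2.75 TPM (1.09, limma adjusted p = 9.17e-05). The groups of all 7 were without overlap, as were 5.97% of all tested genes in this direction. The other 17 targets, which include Pcna, Trp53, Irf3 and Jak1, had log2 differences between -0.45 and 0.44 and were not called.

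Genes of the other ubiquitin-like systems showed little change. Of 61 tested genes for ubiquitin, NEDD8, SUMO, UFM1, the autophagy modifiers, URM1 and FAT10, 1 rose and none fell, or 1.64% where 12.7% of all tested genes were called and 5.58% called higher, and the median log2 difference was -0.03. The gene that rose was Ubd, which encodes FAT10, a modifier with a tandem of ubiquitin-like domains as in ISG15 and known to be induced by interferon gamma and tumor necrosis factor. It rose from 1.31 ± 0.990 TPM in WT to 8.82 ± 5.12 TPM in RhoB-/- (log2 difference 2.01, SE 0.39, limma adjusted p = 0.00498). Its own E1, Uba6, was at 3.35 ± 0.474 and 3.27 ± 0.346 TPM (log2 difference -0.02, limma adjusted p = 0.908), and its E2, Ube2z, at 28.2 ± 2.28 and 29.9 ± 2.93 TPM (log2 difference 0.08, limma adjusted p = 0.571).

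Uba1 was at 109.4 ± 12.5 and 117.7 ± 13.7 TPM (log2 difference 0.10, limma adjusted p = 0.540). The 60 uncalled genes had log2 differences of -0.46 to 0.47. Pias2, Atg7 and Sae1 were lower at an adjusted p below 0.05 but under the fold threshold, with log2 differences of -0.40, -0.41 and -0.46.

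Among the genes of interferon signaling, the largest rises were those of transcription factors, although not all of these factors rose. Of 23 receptors, kinases, STAT and IRF factors and inhibitors, 22 were tested, 7 rose and none fell, or 31.8% against 5.58% of all tested genes called higher, and the median log2 difference was 0.42. Irf7, which amplifies interferon responses, rose from 54.3 ± 19.4 to 445.0 ± 104.3 TPM (log2 difference 3.05, SE 0.23, limma adjusted p = 3.89e-06). Irf9, a DNA-binding factor of the interferon response, rose from 11.0 ± 1.31 to 34.0 ± 3.65 TPM (log2 difference 1.55, SE 0.11, limma adjusted p = 1.97e-06). Stat2, given above, is also on this list.

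Smaller changes were those of Socs1, an inhibitor of Janus kinases, from 1.42 ± 0.563 to 3.46 ± 0.876 TPM (log2 difference 0.89, limma adjusted p = 0.00879), of Ifnlr1, the specific chain of the type III receptor, from 3.55 ± 0.636 to 6.47 ± 1.68 TPM (0.70, limma adjusted p = 0.0118), and of Irf1, from 78.0 ± 19.3 to 122.2 ± 21.2 TPM (0.66, limma adjusted p = 0.0221). The ranges of Socs1 and Irf1 overlapped between the genotypes. Irf1 was no longer called when any 1 of WT replicates 1, 2 and 4 or RhoB-/- replicates 1 and 5 was left out, with log2 differences of 0.56 to 0.65 and adjusted p of up to 0.066, so that without RhoB-/- replicate 5 the list had 6 calls. The other 3 lists had the same number of calls without that library. The chains of the type I receptor, Ifnar1 and Ifnar2, and the kinases Jak1 and Tyk2 had log2 differences of 0.22, -0.01, 0.06 and -0.04 and were not called. Nor were the factors Irf2, Irf3 and Irf8, with log2 differences of 0.09, 0.01 and 0.05. Ifngr1, Ifngr2 and Jak2, of the interferon gamma pathway, had adjusted p below 0.05 with log2 differences of 0.48, 0.52 and 0.52, under the fold threshold.

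**Figure D5:**
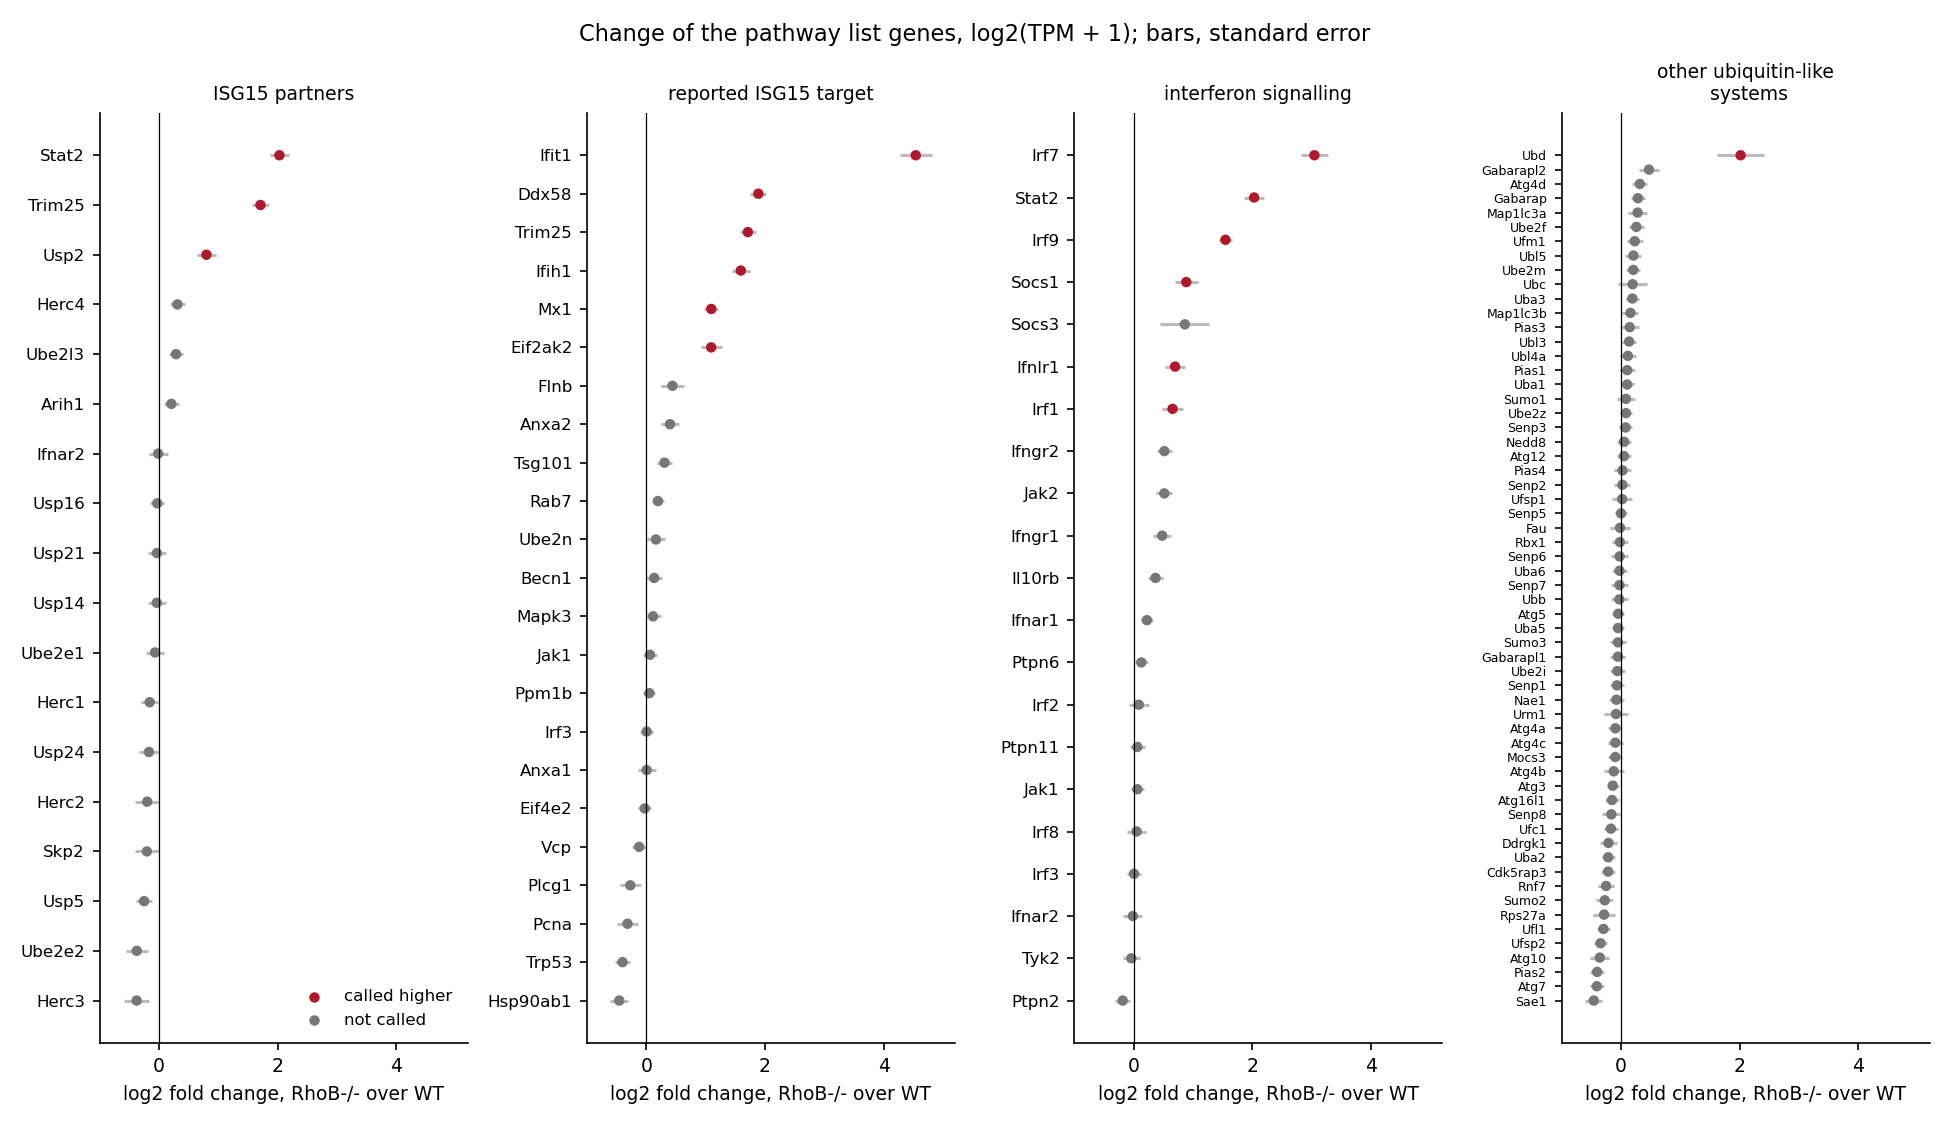
Difference of mean log2(TPM + 1), RhoB-/- minus WT, with its standard error from limma for tested genes of the 4 lists, where red points are genes called higher and gray points genes not called. Red points are 3 of the 18 partners, led by Stat2 at 2.03, and Ubd alone among the other ubiquitin-like systems, and Ifit1 at 4.54 and Irf7 at 3.05 lead the targets and the interferon signaling genes.

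Transcripts of the interferons themselves were scarce. Of 21 interferon genes, 18 were listed at 0 in all 10 libraries and none reached the filter, so that 3 gave a value. Ifnk was listed at 0 in all WT libraries and at 0.44, 0.10, 0, 0.22 and 0.13 TPM in RhoB-/- replicates 1 to 5 (two-sided exact permutation test, p = 0.0476). Ifng was 0.678 TPM on average in WT and 0.526 TPM in RhoB-/- (two-sided exact permutation test, p = 0.571), and Ifnl2 0.076 and 0.052 TPM (two-sided exact permutation test, p = 0.841). Of these 3 tests, none stayed below 0.05 after Benjamini-Hochberg adjustment over the 3. A gene listed at 0 in TPM may still be present below the depth of the library, which is not known here.

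The genes called in the lists can be set beside the promoter motif. Over the 4 lists, 125 different genes, 119 were tested and 15 were called, all of them higher. Of all tested genes, 12.7% were called and 5.58% called higher, so nothing is read from the total number of calls. Of the 13 called genes with a promoter window, 6 held the core motif: Ddx58, Eif2ak2, Ifih1, Ifit1, Socs1 and Stat2. Of the 83 uncalled genes with a window, 3 held it, or 3.61%, close to the 3.44% of all windows. The longer form was in the windows of Ddx58 and Ifit1, in no uncalled gene and in 0.271% of all windows. Among the members, only Isg15 of the 4 with a window held the core.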

How the data were processed

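The authors prepared libraries from total RNA of colonic IECs, sequenced them as paired-end reads, used SeqPrep and Sickle for trimming, HISAT2 for alignment, StringTie for assembly and RSEM for gene levels. The submitters' processing notes name the build GRCm38.p6. The deposited TPM values were used as given. TPM is relative to each library and keeps no depth, so counting errors are unknown. Libraries held 20261 to 21344 genes above 0. Groups and replicate numbers come from the labels.

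The 12870 genes whose TPM averaged 1 or more were fitted with limma 3.58.1 in R 4.3.3 (lmFit, eBayes with trend) on log2(TPM + 1), a scale that understates changes of low genes. Genes below the filter were compared by exact permutation over 252 labelings. The fit was tested on simulated data. Replicate numbers were not treated as pairs in the main fit, since the labels do not say that they pair libraries.

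Members and lists were chosen with earlier results of these data known. Named genes were the members, called partners and targets, up to 3 called genes per direction of the other lists, a fixed set of relatives and factors, and the 10 genes most like the members. Other genes, such as Nedd8, Ubb, Itgb2, Irf1, the receptors and the interferons, were named after their values were seen. Some genes that meet the rule are not reported here by name. Positions are from GENCODE M21 and promoter windows from RefSeq. A protein comparison was not made here. Alternatives were another pseudocount, ratios of means, quantile normalization, recentering, other filters, no fold threshold, a replicate block and each library left out.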

Additional observations from a re-analysis of the deposited data

Results flagged for a closer look

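Single libraries stood apart from the other 4 of their group, by Dixon's criterion at 95%, in 3 of the 54 groups of 5 values that were examined, where chance gives about 3. The library labelled RhoB-/- replicate 5 held Rhob at 110.9 TPM, against 0.57 TPM or less in the other RhoB-/- libraries. Ube2l3, the relative of Ube2l6, was at 70.2 TPM in WT replicate 1, the lowest of its group. Eif2ak2, a reported ISG15 target, was at 17.96 TPM in WT replicate 2, the highest of its group. None of the 5 ISG15 system genes had such a library in either genotype.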

How the results depend on the processing

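The 5 ISG15 system genes were higher in RhoB-/- under every alternative run. Low genes depended on the pseudocount: with 0.1 in place of 1 the log2 difference was 3.35 for Herc6 and 4.96 for Usp18, and the log2 ratio of mean TPM was 3.45 and 5.03. With each library left out in turn, the differences ranged from 5.26 to 5.58 for Isg15, 1.78 to 1.96 for Uba7, 2.27 to 2.43 for Ube2l6, 2.55 to 2.76 for Herc6 and 4.11 to 4.35 for Usp18. Over the same omissions the calls numbered 3 among partners, 7 among targets, 6 to 7 in interferon signaling, 1 to 2 in the other ubiquitin-like systems (2 without RhoB-/- replicate 2) and 1240 to 2092 in the whole table. The list of other ubiquitin-like systems had 2 calls after recentering on the median, with Gabarapl2 added, and 4 without the fold threshold, where the whole table had 2729. Without a filter, 28114 genes were fitted, Itgb2 was added to the partners and Irf1 was lost. The split of calls was 718 higher and 918 lower, 949 and 469 after recentering, 845 and 581 after quantile normalization, 772 and 1218 with a pseudocount of 0.1 and 565 and 548 at a mean of at least 5 TPM. With the replicate number as a block, 1527 genes were called and the counts in the 4 lists did not change. The deviations of same-numbered libraries had correlations of -0.09 to 0.07. Such values cannot exclude a weak pairing, and the labels do not say whether the numbers pair libraries. Recentering added Ifngr1, Ifngr2 and Jak2 to the interferon list, 10 calls in all. The causes of these shifts were not tested, other than that fewer genes or libraries enter some fits. Depth is unknown and limits what can be said of genes near 1 TPM.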
